A study of Mus musculus with 12 samples.

Results

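The genes described here encode the synaptotagmins and the machinery of regulated exocytosis: 37 of the 21770 protein-coding genes of the annotation, taken as a list of names. They comprise 8 calcium-sensing synaptotagmins, 9 other synaptotagmins, 3 SNARE proteins, 7 priming and active zone proteins, 3 genes grouped as complexins and Doc2b, and 7 Rab GTPases or Rab effectors. Each gene was followed over its gene body plus 10 kb on each side, a window that held between 1 and 23 hypomethylated regions (HMRs, stretches of low CpG methylation) per gene and 289 of the 87818 HMRs of the genome.

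DNA methylation was measured by tagmentation-based whole-genome bisulfite sequencing in sorted mouse pancreatic β cells. All mice carried Myt1cCre, Ngn3nCre, Rosa26eYFP and InsApple, so both groups bore the same alleles. Cre is split into parts (cCre and nCre) driven from Myt1 and Neurog3 (Ngn3), so eYFP marks the descendants of progenitors that expressed both (M+N+, labelled eGFP+ in the sample titles), while eYFP- cells (M-N+) are β cells without that history. Apple, expressed from the Ins2 insulin locus, marked β cells for the sort, although the deposited cell type field reads "all islet cells". The 4 groups were eYFP- and eYFP+ β cells at postnatal day 2 (P2; 1 female and 1 male library each) and at day 60 (P60; 2 female and 2 male libraries each). At each stage and sex at least 3 sorts were combined, of 4 to 7 mice and at least 30000 cells per sort, so a library is a pool of mice. The study does not say whether the P60 libraries of 1 sex and subtype came from separate pools. The eYFP- group also holds any descendant of a double-positive progenitor in which Cre did not recombine, and its share was not measured here.

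β cells release insulin by calcium-triggered fusion of secretory granules with the plasma membrane. Rab3 and Rab27 proteins and their effectors bring granules to the membrane, Munc13 and RIM proteins prepare them for fusion, the SNARE proteins syntaxin-1A, SNAP25 and VAMP2 drive the fusion itself, and synaptotagmins bind calcium and membrane lipids through their C2 domains to couple fusion to calcium entry. Many of these genes are shared with neurons. In many other cell types REST, which binds the RE1 element, represses them. Low CpG methylation is typical of promoters and enhancers that are bound by transcription factors, and HMRs away from promoters differ between cell types and stages.

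The regions below were picked from those with large differences between stages and those called or listed between subtypes. They are written 5′ to 3′ on the + strand of mm39 (GRCm39), in lower case, with each CpG in capitals, except one cut by the end of the run. The first is the middle of an HMR upstream of Doc2b and the second an HMR in intron 1 of Syt7, both of which gained methylation from P2 to P60.
Doc2b upstream, chr11:75690548-75690747: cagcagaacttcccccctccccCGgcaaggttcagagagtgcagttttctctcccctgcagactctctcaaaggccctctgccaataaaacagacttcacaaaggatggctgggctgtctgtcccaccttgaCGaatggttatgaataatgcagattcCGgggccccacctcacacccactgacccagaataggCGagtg
Syt7 intron 1, chr19:10380043-10380292: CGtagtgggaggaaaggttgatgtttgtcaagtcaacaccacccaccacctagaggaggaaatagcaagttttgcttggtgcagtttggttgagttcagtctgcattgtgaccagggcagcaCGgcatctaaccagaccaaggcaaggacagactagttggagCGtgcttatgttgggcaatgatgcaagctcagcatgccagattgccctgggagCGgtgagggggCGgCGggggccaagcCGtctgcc

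The next set lost methylation from P2 to P60 in both β-cell subtypes, and lies in introns of Rab27a, Rims2 (the middle of the HMR) and Syt1.
Rab27a intron 2, chr9:72986389-72986600: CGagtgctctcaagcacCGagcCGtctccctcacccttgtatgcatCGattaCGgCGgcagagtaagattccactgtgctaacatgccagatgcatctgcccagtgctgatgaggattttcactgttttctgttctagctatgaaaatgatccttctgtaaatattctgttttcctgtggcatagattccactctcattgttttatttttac
Rims2 intron 1, chr15:39096290-39096489: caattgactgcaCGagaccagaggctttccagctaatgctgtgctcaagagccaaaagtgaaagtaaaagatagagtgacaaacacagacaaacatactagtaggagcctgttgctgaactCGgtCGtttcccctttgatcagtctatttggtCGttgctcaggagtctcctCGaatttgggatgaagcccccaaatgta
Syt1 intron 4, chr10:108497414-108497689: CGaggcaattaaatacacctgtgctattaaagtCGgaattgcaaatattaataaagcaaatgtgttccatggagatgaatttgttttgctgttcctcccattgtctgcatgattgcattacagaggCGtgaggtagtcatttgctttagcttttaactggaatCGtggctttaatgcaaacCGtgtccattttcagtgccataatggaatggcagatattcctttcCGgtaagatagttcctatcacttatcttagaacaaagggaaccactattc

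The last set differed between the eYFP+ and eYFP- pools at P2, the first pair as HMRs tested here and the Syt7 region as an entry of the deposited list of differentially methylated regions.
Syt6 intron 3, chr3:103524414-103524571: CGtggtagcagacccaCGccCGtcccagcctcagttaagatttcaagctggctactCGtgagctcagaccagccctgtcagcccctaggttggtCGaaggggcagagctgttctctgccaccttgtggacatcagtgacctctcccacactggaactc
Rph3al intron 3, chr11:75799086-75799304: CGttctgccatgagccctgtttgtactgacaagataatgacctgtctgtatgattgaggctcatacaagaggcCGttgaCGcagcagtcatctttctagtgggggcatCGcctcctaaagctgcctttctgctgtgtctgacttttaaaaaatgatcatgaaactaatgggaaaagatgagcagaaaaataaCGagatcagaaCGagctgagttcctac
Syt7 intron 1, chr19:10370893-10371047: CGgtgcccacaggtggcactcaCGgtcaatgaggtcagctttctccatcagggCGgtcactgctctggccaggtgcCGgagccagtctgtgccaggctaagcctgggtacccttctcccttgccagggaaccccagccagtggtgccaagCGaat

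Read counts were deposited only as 1 pool per subtype and stage, and single libraries only as lists of HMR positions. The pools held a mean of 24.4 (P2 eYFP-), 24.6 (P2 eYFP+), 43.9 (P60 eYFP-) and 43.7 (P60 eYFP+) reads per CpG, and overall methylation was 69.2%, 70.0%, 67.8% and 67.5%. The P2 libraries held 53.7 to 57.6 Mb of autosomal HMRs and the P60 libraries 41.9 to 44.4 Mb. All P2 libraries shared one sequencing file prefix and the P60 libraries had 2 others, so stage and prefix cannot be told apart. At 253 X-linked HMRs that every P60 male library and no P60 female library held, the P2 eYFP- libraries went against their labels. The one labelled female carried 91.7% and the one labelled male 13.4%, the reverse of the P2 eYFP+ libraries (13.0% and 83.8%). For that reason no test compared the sexes. Among marker genes, 5 of 9 β-cell markers (Iapp, Mafa, Nkx6-1, Pdx1 and Slc2a2) were methylated under 10% at the canonical start in every pool, the endocrine non-β markers Gcg and Ppy were over 50%, and so were Cpa1, Cdh5, Pecam1, Cd3e, Csf1r and Ptprc of acinar, endothelial and immune cells. Ttr and Irx2 of α cells, Hhex of δ cells, Ptf1a, Krt7, Sox9, Kdr and Tubb3 were also under 10%. The remaining β-cell markers, both insulin genes among them, exceeded 10% in at least 1 pool. In the pool order above, Ins1 had 28.3%, 35.1%, 7.87% and 5.74%, and Ins2 had 12.6%, 20.6%, 4.86% and 5.47%. G6pc2 had 15.1%, 12.7%, 2.04% and 2.35%, and Ucn3 had 19.3%, 23.1%, 14.9% and 13.9%. Sst of δ cells was at 14.7% to 19.2%. The use of the canonical start was chosen after seeing the data. Around the 5′ end of the gene record, the window of the main tests, the same 5 β-cell markers were under 10%. There, however, Ins2 had 72.5%, 78.6%, 69.0% and 72.7%, and G6pc2 was at 79.7% or more in every pool. Ttr was at 83.1% to 85.6%, Sst at 56.3% to 68.2% and Krt7 at 33.3% to 63.8%. Kdr was at 8.98% to 14.3%, and Csf1r at only 13.6% to 15.3%. A methylation level between the extremes cannot tell a share of fully methylated cells from partial methylation in each cell.

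Most exocytosis genes had an unmethylated start at both stages. In the 1 kb around the 5′ end of the gene record, 27 of 37 genes (73.0%) were methylated under 10% in all 4 pools, compared with 51.1% of 20386 protein-coding genes. At the start of the canonical transcript the count was 30 of 37 (81.1%; 57.2% of all genes), and 34 of 37 genes had at least 1 annotated start under 10%. The exceptions were Syt8, Syt12 and Syt15. An HMR reached into the 1 kb around the 5′ end of the gene record in 34 genes, the others being Snap25, Syt17 and Syt8.

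The 5 lowest starts were under 1% in every pool. Rab27a, the GTPase that carries granules to the cell cortex, had 0.199% (P2 eYFP-), 0.949% (P2 eYFP+), 0.498% (P60 eYFP-) and 0.489% (P60 eYFP+). Pclo, the active zone scaffold Piccolo, ranged from 0.416% to 0.731% over the pools. Vamp2, the granule SNARE, ranged from 0.578% to 0.906%. Syt7, the high-affinity calcium sensor, ranged from 0.644% to 0.902% and Erc1, an active zone scaffold also called ELKS, from 0.540% to 0.757%. In the same pool order the highest starts were Snap25 (71.9%, 75.6%, 75.6% and 69.0%), Syt8 (60.5%, 74.7%, 67.5% and 67.3%), Rph3al (53.3%, 47.6%, 53.6% and 51.5%), Syt17 (46.3%, 45.3%, 47.8% and 47.5%) and Rab27b (43.7%, 38.3%, 31.3% and 36.3%).

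For several of these genes the methylated 5′ end was not the only start. Snap25, the plasma membrane SNARE, was at 1.23%, 1.73%, 1.5% and 1.75% at its canonical start 21636 bp downstream of the 5′ end of the record. Syt17 was at 2.96%, 1.62%, 2.34% and 1.93% at its canonical start. Rph3al, which encodes the Rab effector Noc2, was at 18.6%, 19.3%, 27.1% and 23.5% at its canonical start and at 1.16%, 3.67%, 2.85% and 1.51% at a start 12459 bp inside the gene. Syt16 showed the opposite order, with 5.58%, 7.44%, 6.28% and 6.51% at the 5′ end of the record and 75.1%, 77.7%, 76.1% and 76.5% at the canonical start. Over the 22 genes with more than 1 start, and the rest, 41 of 87 starts were under 10% in all pools.

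**Figure D1:**
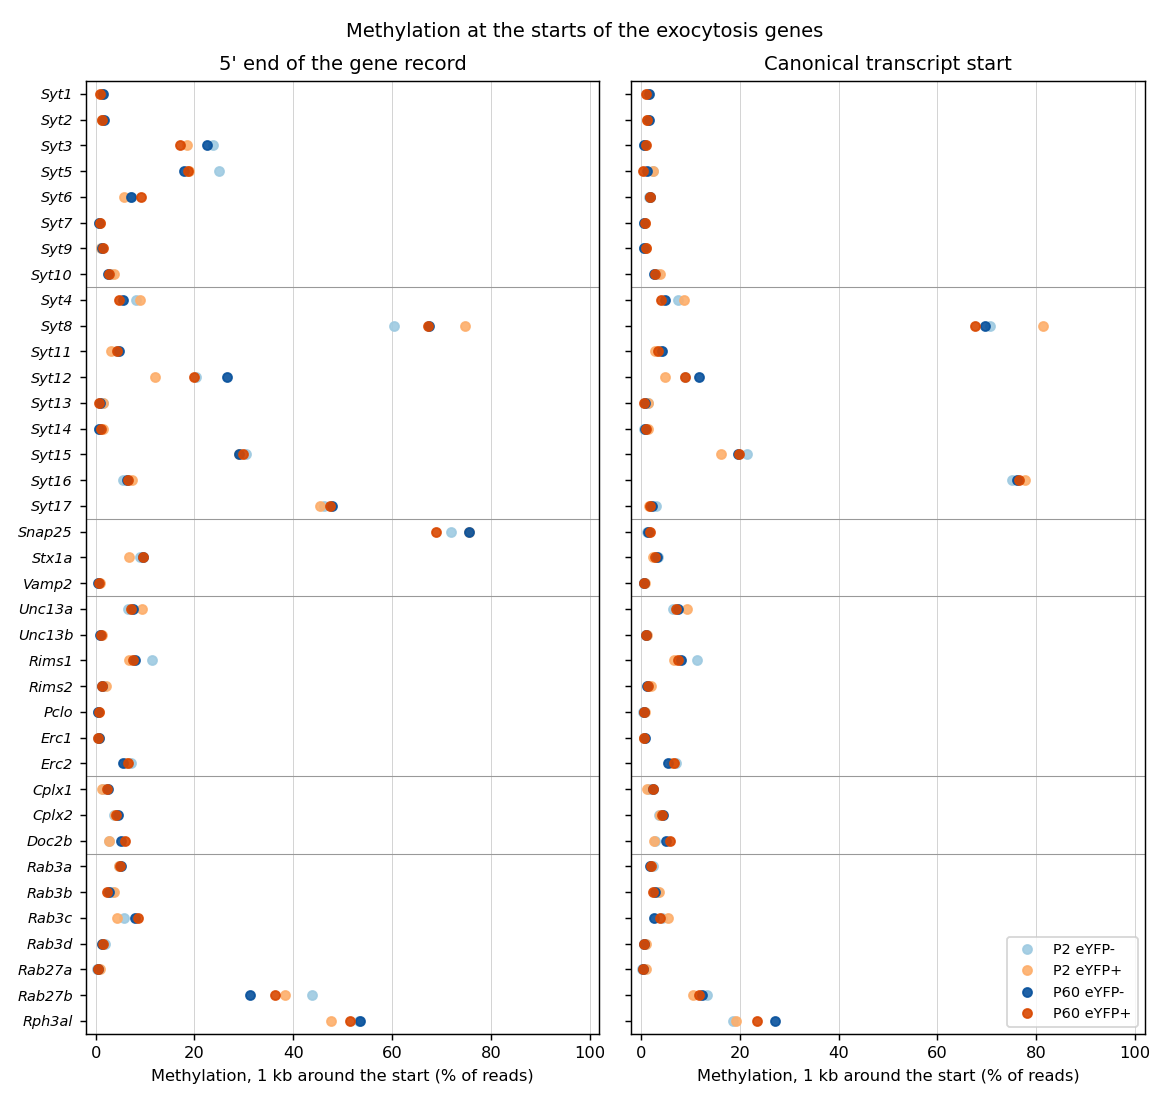
Methylation in the 1 kb around the start of each of the 37 genes (x axis, percent of reads) in the 4 pools (coloured points), at the 5′ end of the gene record (left) and at the canonical transcript start (right), with lines between role groups. Most points of both panels sit under 10%; Snap25 moves from 71.9% on the left to 1.23% on the right in the P2 eYFP- pool, and Syt16 moves the other way.

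Gene starts hardly differed between the groups. A region was called different where Fisher's exact test on pooled reads gave a Benjamini-Hochberg adjusted p (written adjusted exact p where printed) under 0.05 over all features and the levels differed by at least 10 percentage points. Between subtypes at P2, 0.118% of all starts were called higher in eYFP+ and 0.0588% lower, and at P60 0.0483% and 0.0628%. The one exocytosis gene among them was Syt8, a divergent synaptotagmin, which was higher in the P2 eYFP+ pool (74.7% against 60.5%, adjusted exact p = 0.0416). Between stages, 4.44% of all starts were called higher and 2.13% lower at P60 in eYFP- cells, and 4.29% and 3.67% in eYFP+ cells. Only Rab27b, the close relative of Rab27a, was called among the 37 genes, falling from 43.7% to 31.3% in the eYFP- pools (adjusted exact p = 7.99e-05), with 38.3% and 36.3% in the eYFP+ pools. Neither call was made at the canonical start or with 1000 bp on each side. No gene start of the 37 differed by at least 10 points between stages in both subtypes.

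Away from gene starts, methylation of the exocytosis genes differed by stage. Of 288 HMRs with at least 50 reads in each pool, 76 (26.4%) were higher at P60 than at P2 in eYFP- cells and 7 (2.43%) lower, against 28.2% and 2.9% of all HMRs. In eYFP+ cells 85 (29.5%) were higher and 9 (3.12%) lower, against 26.8% and 3.83%. In both subtypes 68 HMRs (23.6%) of 21 genes were higher and 4 (1.39%) lower, against 23% and 1.72% of all HMRs. The shares were thus close to those of the genome. The median difference was 3.01 points in eYFP- and 2.78 in eYFP+, against 2.93 and 2.39 over all HMRs. HMRs enter because at least 1 pool was called hypomethylated there, and the P2 libraries hold more of them, so regions low at P2 alone enter more often than regions low at P60 alone, for every gene. The tests compare pools of reads and not mice, and neighbouring CpGs on 1 fragment and PCR copies are not independent.

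**Figure D2:**
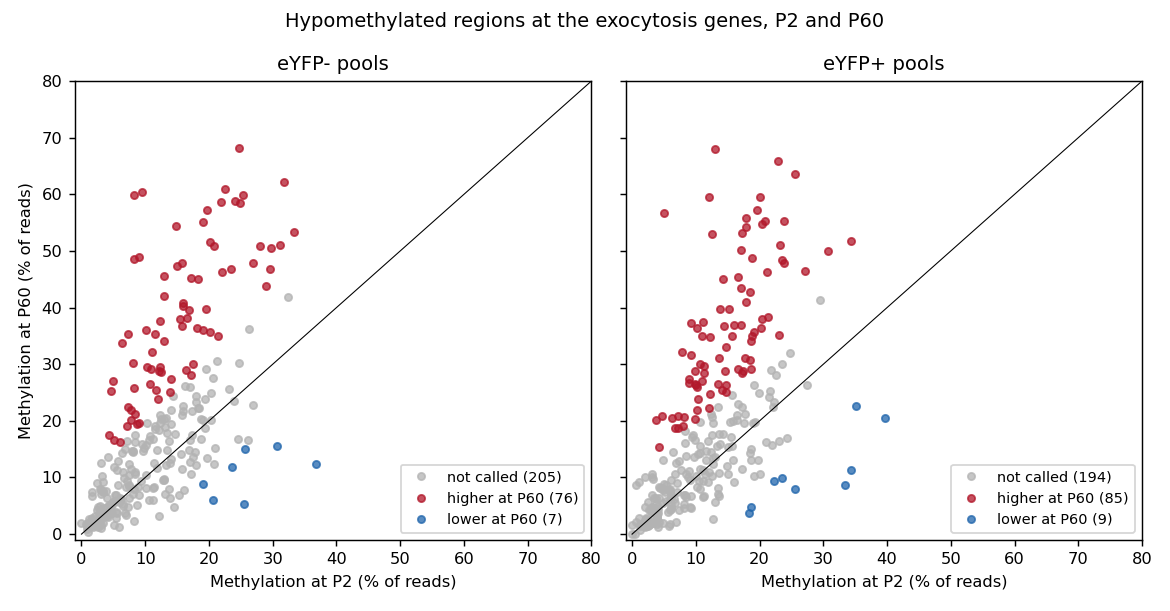
Methylation of the 289 HMRs of the exocytosis genes at P2 (x axis) and P60 (y axis), in percent of reads, for the eYFP- pools (left) and the eYFP+ pools (right). Points above the diagonal are higher at P60; 76 and 85 were called higher (red) and 7 and 9 lower (blue).

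The gains lay away from gene starts. At the starts of protein-coding genes 1 of 44 HMRs (2.27%, an HMR at Syt3) was higher in each subtype, against 4.03% (eYFP-) and 3.82% (eYFP+) of all such HMRs. Elsewhere 75 of 244 (30.7%) were higher in eYFP- and 84 (34.4%) in eYFP+, against 32.5% and 30.9%. Introns held 42 of the 68 regions higher in both subtypes (of 164 intronic HMRs), exons 9 of 17, other annotated starts 6 of 23, the upstream 10 kb 8 of 26 and the downstream 10 kb 2 of 25. The 68 regions had a median length of 439 bp and rose from a median of 15.2% to 38.8% in eYFP- and from 15% to 37.2% in eYFP+. The 217 regions called in neither direction in both subtypes went from 8.0% to 9.14% and from 9.03% to 9.54%. Both groups were formed by calls on these same pools, so the gap between them follows from the selection.

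Among the calcium-sensing synaptotagmins, 17 of 71 HMRs were higher at P60 in both subtypes. Syt7 held 5 of its 14. Its intron 1 region, printed above and centred 14135 bp from the start, had 24.7% (95% Wilson interval 19.5 to 30.7) at P2 eYFP-, 13.0% (8.69 to 19.1) at P2 eYFP+, 68.1% (63.8 to 72.1) at P60 eYFP- and 68.1% (64 to 71.8) at P60 eYFP+, from 8 CpGs and 161 to 545 reads. The P2 and P60 intervals do not overlap in either subtype (adjusted exact p = 5.93e-26 and 6.74e-35, Fisher's exact test), and an HMR was present there in 1 of 2, 2 of 2, 0 of 4 and 0 of 4 libraries. These intervals cover counting error only. A second Syt7 region 6404 bp upstream of the start went from 19.7% and 19.6% to 57.2% and 57.1%. In contrast, an intron 2 region of Syt7 rose from 7.24% and 8.12% to 22.4% and 20.6% and stayed an HMR in every library.

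Syt1, the fast calcium sensor of synapses, held 6 gains among 23 HMRs and 1 loss. An exonic HMR rose from 9.52% (P2 eYFP-) and 12.5% (P2 eYFP+) to 60.4% and 53.0% (adjusted exact p = 1.17e-49 and 2.09e-28), and was present in all P2 libraries and none at P60. Regions in intron 9 (14.8% and 17.8% to 54.4% and 54.3%) and intron 3 (24.1% and 22.8% to 58.8% and 65.9%) rose likewise. The intron 4 region printed above went the other way, from 23.6% and 33.3% to 11.9% and 8.67% (adjusted exact p = 0.00613 and 2.09e-09), and was an HMR in 0 of 4 P2 libraries and 4 of 8 P60 libraries. Those 4 are the male P60 libraries of both subtypes, and none of the female ones had it. The male P60 libraries also held more HMRs in total (46287 to 49975) than the female ones (38064 to 44650). The part of the sex in this region was not tested. Another intron 3 region fell in the eYFP+ pools alone by the test (18.7% to 4.72%, adjusted exact p = 0.00219), with 11.4% and 8.27% in eYFP-. Syt1 thus held changes in both directions within one gene body. Syt2, its close relative, held 4 gains among 13 HMRs, and Syt3 and Syt6 1 each. None of the HMRs of Syt5, Syt9 and Syt10 was higher or lower in both subtypes.

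Among the other synaptotagmins, most of which bind calcium weakly or not at all, 10 of 53 HMRs were higher in both subtypes, 8 of them among the 20 of Syt16 and 2 among the 5 of Syt17. A region in intron 3 of Syt16 rose from 24.9% and 17.3% to 58.5% and 53.2% (adjusted exact p = 1.28e-15 and 1.68e-24), while a longer intronic region of the same gene fell in eYFP+ (23.5% to 9.93%, adjusted exact p = 5.10e-08) with 17% and 12.7% in eYFP-. Syt4, a synaptotagmin linked to the calcium sensitivity of maturing β cells, and Syt11, Syt12, Syt13 and Syt14 had no HMR called between stages in either subtype. Of Syt8 and Syt15 no HMR was called in both.

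**Figure D3:**
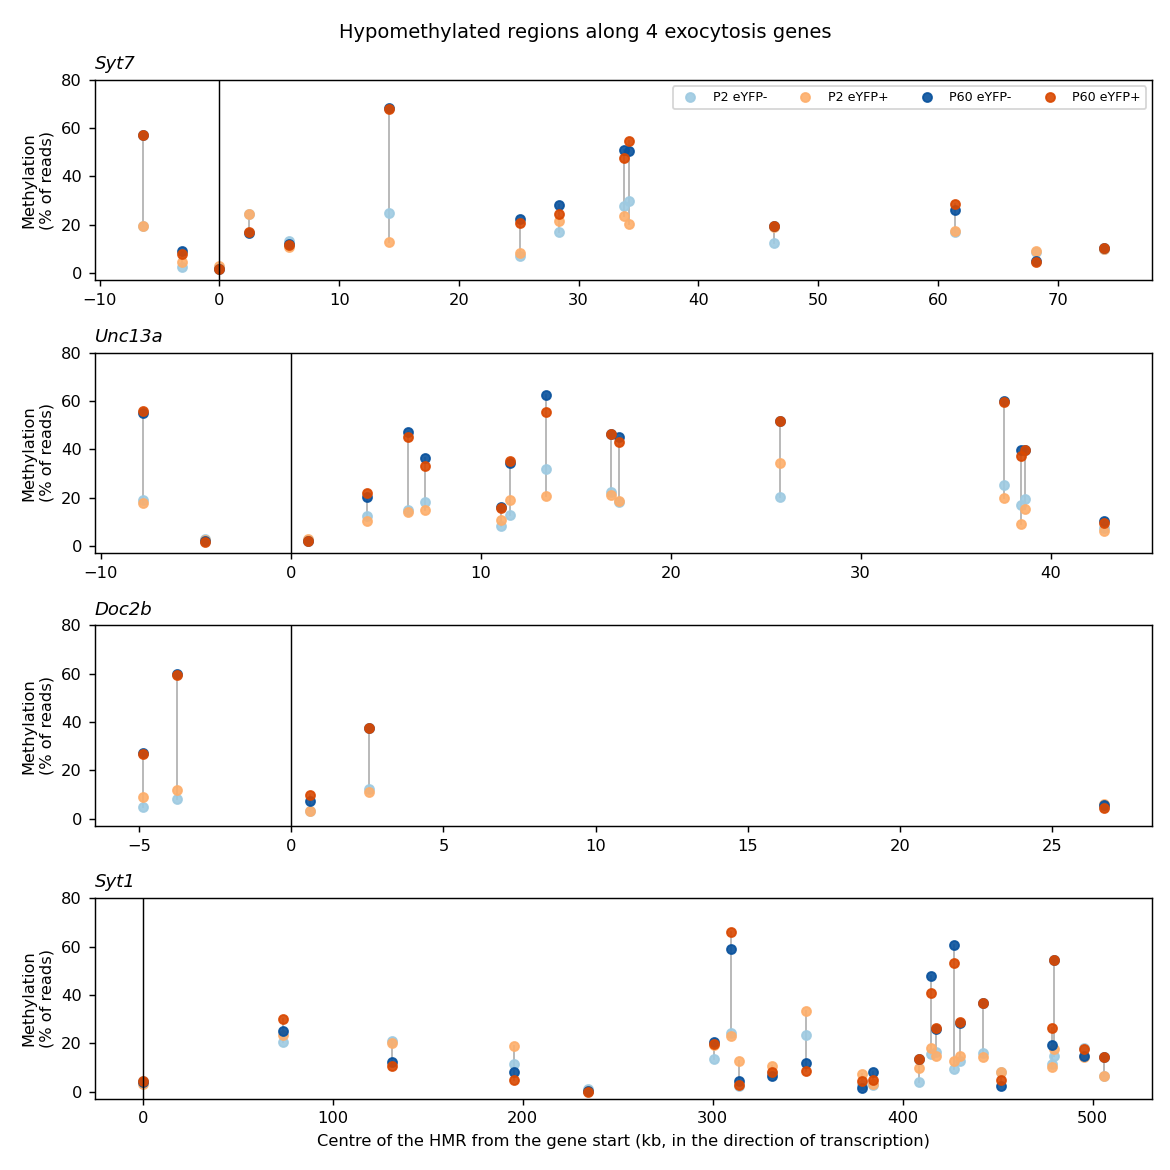
Methylation (y axis, percent of reads) of each HMR of Syt7, Unc13a, Doc2b and Syt1 in the 4 pools, placed by the distance of its centre from the gene start (x axis, kb in the direction of transcription, start at 0). The HMRs at the starts are near 0% in all pools, and the gaps between the P2 (light) and P60 (dark) points open inside the genes and upstream, as at the Doc2b region that goes from 8.26% to 59.8% in eYFP- cells.

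Of the SNARE genes, only Stx1a held a region higher in both subtypes, 1 of 13 HMRs of the group. It lies at another annotated start 17709 bp into the gene, which encodes the plasma membrane SNARE syntaxin-1A, and rose from 6.41% and 12.3% to 33.8% and 34.8% (adjusted exact p = 4.24e-19 and 1.37e-12). All P2 libraries and no P60 library had an HMR there. No HMR of Snap25 or Vamp2 was called between stages in either subtype.

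The priming and active zone genes held 20 gains in both subtypes among 62 HMRs and 2 losses. Unc13a, which encodes the priming factor Munc13-1, held 11 of them among its 16 HMRs. The widest was 7800 bp upstream, inside the neighbouring gene Jak3, with 49 CpGs, and rose from 19.0% (16.8 to 21.4) and 17.8% (15.6 to 20.3) to 55.1% (53.3 to 56.8) and 55.8% (53.9 to 57.7), adjusted exact p = 1.42e-97 and 5.65e-98. A region in intron 36 rose from 25.3% to 59.9% in eYFP- and by 39.6 points to 59.6% in eYFP+. The start of Unc13a was at 6.47%, 9.37%, 7.56% and 7.15%. Its relative Unc13b gained at an internal start (21.9% and 23.8% to 58.6% and 55.3%, adjusted exact p = 7.25e-25 and 1.10e-18), an HMR in all P2 and no P60 libraries, while its first start kept 0.967% to 1.29%.

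Erc2 held 4 gains among 11 HMRs, the largest in intron 3 (8.29% and 17% to 48.5% and 50.2%, adjusted exact p = 1.18e-19 and 1.36e-11). Other regions of Erc2 were lower at P60 in 1 subtype, in intron 2 for eYFP- (19.0% to 8.90%, with 10.5% and 9.46% in eYFP+) and in intron 14 for eYFP+ (18.3% to 3.69%, with 12.2% and 3.21% in eYFP-). Rims2, the RIM protein known from β-cell granule docking, held 1 gain and 1 loss. Its intron 1 region, printed above, fell from 25.6% (20.3 to 31.6) and 25.6% (19.7 to 32.5) to 5.35% (3.49 to 8.12) and 7.99% (5.85 to 10.8), adjusted exact p = 3.22e-11 and 1.25e-07, and was an HMR in 1 of 4 P2 and all 8 P60 libraries. An intron 14 region of Erc1 fell from 30.6% and 35.2% to 15.5% and 22.6% (adjusted exact p = 3.58e-05 and 0.00247), with an HMR in 0 of 4 P2 and 6 of 8 P60 libraries. Rims1 held 2 gains among 9 HMRs, and no HMR of Pclo was called in either subtype.

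Doc2b, a calcium-binding C2-domain protein of β-cell exocytosis, held 3 gains among 5 HMRs. The region 3741 bp upstream, the middle of which is printed above, had 8.26% (5.74 to 11.7), 12% (8.89 to 16.1), 59.8% (56.2 to 63.3) and 59.5% (56.0 to 62.9) from 12 CpGs (adjusted exact p = 1.16e-59 and 3.24e-48). All 4 P2 libraries and none of the 8 P60 libraries had an HMR there. A region 4879 bp upstream rose from 4.99% and 8.99% to 27.1% and 26.6%, and one in intron 1 from 12.3% and 11.2% to 37.6% and 37.4%, while the start itself was at 2.76%, 2.70%, 5.14% and 5.96%. Cplx2, a complexin that binds the assembled SNARE complex, rose in intron 1 (17.5% and 17.7% to 30.1% and 31.1%) and downstream (31.1% and 16.7% to 51.0% and 45.4%). No HMR of its relative Cplx1 was called.

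Of 79 HMRs of the Rab GTPases and the effector Rph3al, 15 were higher in both subtypes and 1 lower. Rab27a held 1 of each. Its intron 2 region, printed above, fell from 36.8% (28.6 to 45.8) and 39.6% (32.1 to 47.6) to 12.4% (9.30 to 16.3) and 20.5% (16.3 to 25.3), adjusted exact p = 1.89e-07 and 9.73e-05, with an HMR in 0 of 4 P2 and 4 of 8 P60 libraries. Those 4 share one file prefix, and none of the P60 libraries of the other prefix had it. The part of the prefix in the change was not tested. An exonic region of the same gene rose from 20.8% and 18.8% to 50.8% and 48.8% (adjusted exact p = 1.35e-23 and 7.64e-27). Both subtypes moved alike in each of these, and the start remained under 1%.

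Rab3c, one of the Rab3 genes that encode GTPases of secretory vesicles, held 4 gains among 14 HMRs. Its intron 4 region had 8.96%, 5.00%, 49.0% and 56.6%, from 60 to 189 reads (adjusted exact p = 1.88e-08 and 5.44e-13). Rph3al held 5 gains among 22 HMRs, among them one 7662 bp upstream (22.5% and 25.5% to 60.9% and 63.5%). Rab3b held 3 gains among 11 and Rab3a 2 among 8. Rab3a, the most studied of the group in insulin release, also had regions lower at P60 in the eYFP- pools, 1334 bp upstream (20.6% to 6.07%, adjusted exact p = 2.15e-21, with 13.5% and 8.14% in eYFP+) and 2293 bp upstream (25.6% to 15%, with 23.0% and 16.5%). In eYFP+, an internal start of Rab3b fell from 22.3% to 9.34%, with 21.0% and 15.3% in eYFP-. No HMR of Rab3d was called between stages, and none of Rab27b in both subtypes.

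HMRs present at P2 and absent at P60 were also counted library by library, where stage and file prefix again cannot be told apart. An HMR was counted as switched where every library of one stage and none of the other had it, which holds for 5.26% of all HMRs in the direction lost at P60 and 0.0626% in the direction gained. Of the 289 HMRs of the exocytosis genes 19 (6.57%) were lost, in Unc13a (4), Rph3al (3), Syt1 (2), Doc2b (2), and 1 each in Syt2, Syt16, Syt17, Stx1a, Unc13b, Rims1, Rab3b and Rab27a, and 0 were gained. Without both P2 eYFP- libraries the count was 27. The largest differences among them were those of Doc2b, Syt1, Unc13a and Unc13b given above.

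The percent of each gene window covered by the HMRs of a library allows a test over replicate libraries. It was lower at P60 than at P2 in 22 of 37 genes (59.5%) and higher in 1, against 38.4% and 1.07% of all protein-coding genes (exact permutation test over the 12 libraries, adjusted p under 0.05, 495 regroupings, smallest possible p = 0.00202). The median difference was -0.54 percentage points for the 37 genes and -0.40 over all genes. Without both P2 eYFP- libraries it was -0.59 and -0.41, with 30 of 37 genes lower, and 0 genes were called. With the replicate number as a block, only the 8 libraries with numbers found at both stages could be used. Then 31 genes were lower and the smallest possible p was 0.0556, so no gene could be called. The test over 12 libraries counts them as independent, although eYFP+ and eYFP- libraries of the same stage and number may come from the same mice. P60 libraries of the same sex and subtype may also share a pool of mice. With the eYFP+ libraries alone, 29 genes were lower and the smallest possible p was 0.0667, so again no gene could be called. Coverage of Doc2b was 8.78% and 9.87% in the P2 eYFP- libraries, 8.90% and 7.58% in P2 eYFP+, 4.71%, 3.88%, 3.86% and 4.63% in P60 eYFP- and 3.82%, 4.26%, 4.51% and 3.65% in P60 eYFP+. Every P60 library was below every P2 library (adjusted exact p = 0.00765). Coverage of Unc13a was 12.5%, 12.9%, 15.1% and 13.1% at P2 (eYFP-, then eYFP+) and 7.10% to 7.84% at P60, with a median of 7.53%. Coverage of Syt1 was 1.88%, 2.09%, 2.11% and 2.10% at P2 and 0.999% to 1.26% at P60 (adjusted exact p = 0.00765 for both genes).

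Since P60 libraries held only 0.786 of the autosomal HMR length of P2 libraries, coverage was also divided by the library's own total. Then 6 of the 37 genes were lower and 13 higher, against 10.4% and 30.3% of all genes. Doc2b, Syt1, Unc13a, Syt12, Syt9 and Syt16 were lower on both scales. Syt12 went from 8.06% to 10.5% at P2 to 4.5% to 6.19% at P60, Syt9, a calcium sensor of insulin granules, from 0.920% to 1.48% to 0.702% to 0.847%, and Syt16 from 3.87% to 4.62% to 2.21% to 3.21%. Syt14 was higher on both scales, from 1.03% to 1.17% at P2 to 1.19% to 1.44% at P60. Syt11 and Syt13 turned from lower to higher with the division. Syt4, Syt15, Rims2 and Erc1 were called on neither scale, and the remaining genes on 1 scale only. Coverage of Syt7 was 12.3% to 13.3% at P2 and 10.7% to 13.8% at P60 and overlapped (adjusted exact p = 0.403). Syt4 had the widest spread at P60, from 2.32% to 8.77%, against 3.32% to 4.27% at P2.

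**Figure D4:**
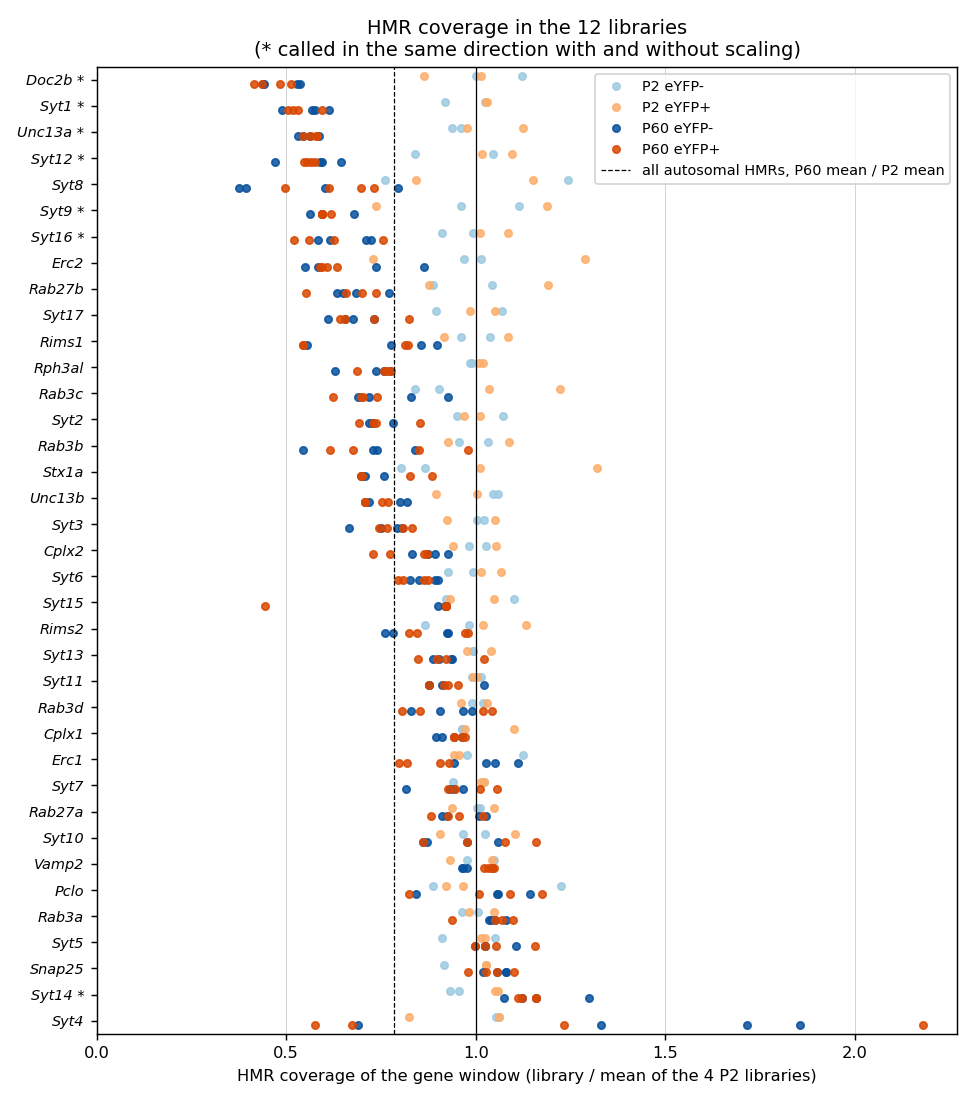
HMR coverage of each gene window in the 12 libraries, divided by the mean of the 4 P2 libraries (x axis), with genes ordered by the ratio of P60 to P2. The dashed line is the ratio over all autosomal HMRs, 0.786. Doc2b, Syt1, Unc13a and Syt12 at the top have every P60 point left of every P2 point, and Syt4 at the bottom spreads most at P60.

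Between subtypes, differences at exocytosis genes were few. At P2, 1 of 288 HMRs was higher in eYFP+ and 1 lower (0.867% and 0.447% of all HMRs), and at P60 0 were higher and 2 lower (0.326% and 0.345%). The Syt6 region printed above had 32.4% (25.8 to 39.7) in the P2 eYFP- pool and 15.6% (10.5 to 22.5) in P2 eYFP+ (adjusted exact p = 0.0424), with 41.9% and 34.9% at P60. The Rph3al intron 3 region had 15.3% (10.7 to 21.5) and 34.4% (27.5 to 41.9) at P2 (adjusted exact p = 0.00893), and 6.87% and 11.4% at P60. At P60 a region 1230 bp upstream of Stx1a had 43.8% (39.7 to 48.0) in eYFP- and 32.0% (28.0 to 36.3) in eYFP+ (adjusted exact p = 0.0145), with 29.0% and 24.8% at P2. A region in intron 28 of Rims1, a RIM protein of the active zone, had 40.4% (34.1 to 46.9) and 26.4% (21.7 to 31.8) at P60 (adjusted exact p = 0.0470), with 15.9% and 13.5% at P2. None of these 4 regions was called at the other stage, and the difference between the stages was not tested. The Stx1a region is, however, in the deposited P2 list described below, also as lower in eYFP+. Only 1 P2 eYFP+ library had an HMR there, and no P60 library did.

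**Figure D5:**
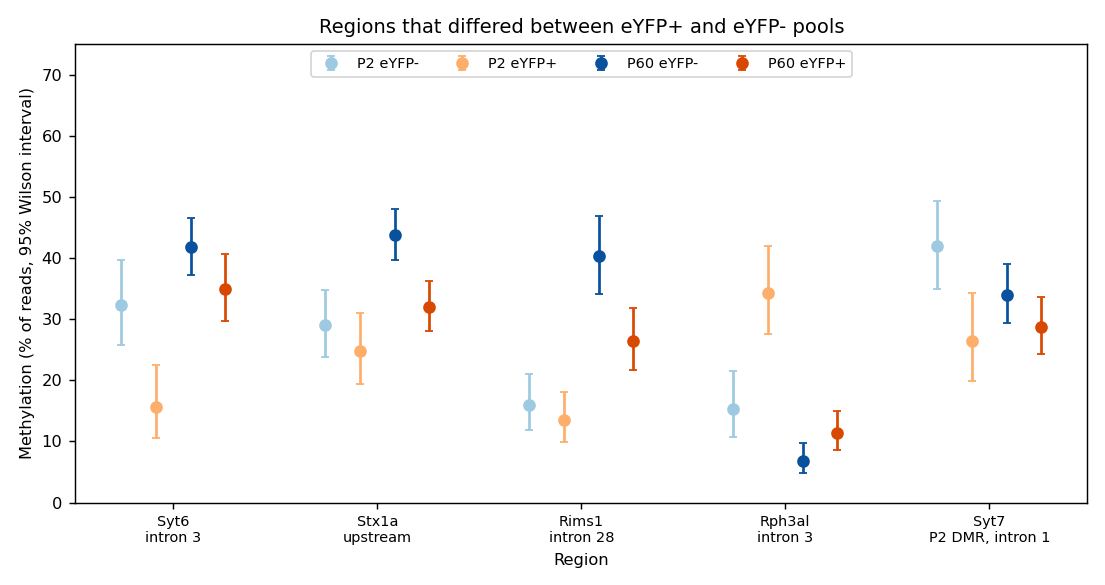
Methylation (y axis, percent of pooled reads with 95% Wilson intervals) of the 4 HMRs that differed between the subtypes and of the deposited Syt7 P2 DMR, in the 4 pools. The P2 eYFP- and eYFP+ intervals are apart at Syt6 and Rph3al, and the P60 intervals at Stx1a and Rims1.

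The replicate libraries gave no call between subtypes. In this test a gene could pass only if a large share of all genes reached the smallest possible p. The lack of calls is thus no measure of equal coverage. Coverage differed at an adjusted p under 0.05 for none of the 37 genes and 0% of all genes in either direction (exact permutation within stage, 420 regroupings, smallest possible p = 0.00476). At an unadjusted p under 0.05 there was 1 of the 37, Erc1 (-0.13 points in eYFP+, exact permutation p = 0.00476), against 3.09% of all genes. Erc1 coverage was 1.02% and 0.885% in the P2 eYFP- libraries, 0.867% and 0.854% in P2 eYFP+, 0.952%, 1.01%, 0.854% and 0.931% in P60 eYFP- and 0.741%, 0.820%, 0.722% and 0.843% in P60 eYFP+. No HMR of these genes was in every P60 library of one subtype and none of the other, a pattern of 0.0159% (eYFP+ alone) and 0.0205% (eYFP- alone) of all HMRs.

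The deposited lists of differentially methylated regions (DMRs) between subtypes, which keep regions of at least 50 bp with at least 2 differing CpGs, hold 21 regions in the windows of these genes, 12 at P2 and 9 at P60. These are 0.293% of the 4091 P2 DMRs and 0.38% of the 2366 P60 DMRs, while the same windows hold 0.329% of all HMRs. They were chosen on the same counts, so their pooled levels are given as a description. At P2, 8 were listed as lower in eYFP+. The Syt7 region in intron 1, printed above, had 42.0% in P2 eYFP- and 26.4% in P2 eYFP+ with 34.0% and 28.7% at P60, and was an HMR in 0 of 2, 2 of 2, 2 of 4 and 3 of 4 libraries. For the other 7 the P2 pair was 37.1% and 21.0% at Syt3, 32.8% and 20.7% at Syt12, 33.3% and 20.8% at Rab27b, 19.0% and 9.58% at Erc2, 29.0% and 24.8% at Stx1a, 20.3% and 17.6% at Snap25 and 17.9% and 16.2% at Rab3a. The last ones differ little over the whole region. The 4 listed as lower in eYFP- at P2 had 21.4% and 50% at a second Syt7 region, 14.6% and 62.7% downstream of Vamp2 (both of only 2 CpGs), 24.1% and 36.7% at Rims1 and 10.1% and 28.2% at Rph3al. Syt7 thus had 1 region in each direction.

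At P60 the 5 regions listed as lower in eYFP- lay at Doc2b (22.5% in eYFP- and 32.7% in eYFP+ over 12 CpGs, 994 bp into the gene, HMRs in 4 and 1 of 4 libraries), Syt1 (14.9% and 22.9%), Syt2 (25.9% and 37.8%), Rims2 (13.2% and 19.1%) and Rph3al (23.7% and 26.6%). The 4 listed as lower in eYFP+ lay at Syt3 (37.6% and 25.3%), Syt12 (28.9% and 18.1%), Rph3al (29.0% and 21.4%) and Erc1 (15.3% and 5.71%). The Syt12 region, 210 bp upstream of the start, also had 27.6% in eYFP- and 4.26% in eYFP+ at P2, though it was not in the P2 list. Over the full 1 kb the Syt12 start had 20.4%, 12%, 26.6% and 19.9%, and the difference of -8.37 points at P2 and -6.69 at P60 was under the 10-point limit at both stages (adjusted exact p = 0.0357 and 0.00677).

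The sequences of the regions were searched for motifs on both strands. An RE1, taken as CAGCACC and GGACAG 2 bases apart, was in the windows of 7 of 37 genes (18.9%; Syt2, Syt4, Syt6, Syt7, Syt9, Snap25 and Erc1), against 2.39% of all protein-coding genes, whose windows differ in length. It was within 3 of the 289 HMRs (1.04%; 0.177% of all HMRs). At Snap25 a pair of elements lies within the HMR of the canonical start, at 0.485% to 1.23% in the 4 pools. At Syt7 it lies beyond the edge of the intron 1 region that gained methylation, where CpGs within 100 bp had 44.0% and 53.2% at P2 and 82.1% and 80.3% at P60. At Syt6, in the HMR 1177 bp upstream, the levels were 0.99%, 2.35%, 4.22% and 5.85%. In the central 200 bp of the HMRs, the FOXA motif TGTTTAC was in 3.46% (5.57% of all HMRs), the E-box CAGATG of NEUROD1 in 19.4% (18%) and the NKX6-1 motif TTAATTA in 4.15% (4.48%). Among the 68 regions higher in both subtypes the shares were 4.41%, 23.5% and 4.41%. Of the printed sequences, only that of Rab27a holds one of these motifs, the E-box. A match is a description of the letters and not of binding.

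Other genes of the secretory pathway, from a list of 71 names of which 70 matched, were counted in the same way. Of their 466 HMRs outside the windows above, 127 (27.3%) were higher and 15 lower at P60 in eYFP- and 120 (25.8%) higher and 23 lower in eYFP+, beside 28.2% and 26.8% of all HMRs higher. Coverage by library was lower at P60 in 29 of the 70 genes (41.4%) and higher in 5, beside 59.5% of the 37 genes and 38.4% of all genes lower. The difference between the lists was not tested. Between subtypes 2 HMRs were higher and 1 lower at P2, and 0 and 1 at P60.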

How the data were processed

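Whole-genome bisulfite libraries (12) were trimmed by the authors with Trim Galore 0.6.6 and cutadapt 1.16, mapped to mm39 with abismal and processed with MethPipe, merging both strands of a CpG. SAMtools 1.5 and FastQC are named in their processing notes. The deposited methylation tables hold read counts (methylated and unmethylated) per CpG for 1 pool per subtype and stage, with a score of the difference that was not used. The authors' HMR lists hold positions per pool and per library, and their DMR lists hold positions and numbers of CpGs.

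HMRs of the 4 pools were merged where they overlapped and assigned to genes of GENCODE M39. Reads were summed over the CpGs of an HMR or of the start plus 500 bp on each side, at CpGs with reads in all 4 pools (20353739), and each pair of pools was compared with Fisher's exact test (two-sided), with Benjamini-Hochberg adjustment over all features with at least 50 reads in both pools (adjusted p under 0.05 and 10 percentage points). HMR coverage of gene windows was compared between libraries by two-sided exact permutation tests, adjusted over 21770 genes. Fisher tests compare pools, and permutation p-values the spread between libraries, each of which pools mice. Intervals are 95% Wilson intervals. Python 3.11.15, NumPy 2.4.6, pandas 2.3.3, SciPy 1.17.1, pysam 0.24.0 and matplotlib 3.10.9 were used, and the scripts were tested on simulated data.

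The genes and lists were chosen with earlier results of these data known. All 37 genes are accounted for. Values are given for genes with a call between subtypes, the 10 largest stage differences in each direction, the 5 highest and 5 lowest starts, deposited DMRs and HMRs held by all libraries of 1 stage alone. The correlation of deviations from the group means between same-numbered P60 libraries was 0.150, 0.204, 0.309 and 0.140 for numbers 1 to 4, and 0.0142 at P2. Numbers 1 and 4 correlated more with a library of another number (0.198 and 0.232), so the numbers paired the P60 libraries only in part. Each P60 number also stands for 1 sex and 1 file prefix, which cannot be told apart from pairing. Alternatives were stricter read, difference and length limits, other start windows, gene bodies alone, scaled coverage, a replicate block and leaving out libraries. Those with the canonical start, with the P60 libraries of 1 file prefix, with eYFP+ libraries alone and, for switched HMRs, without the P2 eYFP- libraries were chosen after seeing the data. The level of 1 marker gene is not reported here.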

Additional observations from a re-analysis of the deposited data

Results flagged for a closer look

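Of 74 groups of 4 P60 libraries (37 genes in each subtype) examined for HMR coverage of the gene window, 5 had 1 library far from the other 3 by Dixon's criterion at 95%, and chance gives about 1 in 20. Coverage of Syt2 was 4.81% in P60 eYFP- replicate 2 and 4.42% to 4.48% in the others. Syt9 had 0.773% in P60 eYFP+ replicate 3 and 0.742% in each of the others. Syt15 had 2.99% in P60 eYFP- replicate 2 against 3.05% to 3.06%, and 1.48% in P60 eYFP+ replicate 3 against 3.06%, which makes it the one gene with such a library in both subtypes. Stx1a had 3.62% in P60 eYFP- replicate 4 and 3.33% to 3.38% in the others.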

How the results depend on the processing

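Stage differences of HMRs kept their counts within 1.5 times under every alternative tried (83 regions in eYFP- and 94 in eYFP+), though the lower regions among them went from 7 to 3 and from 9 to 4 at 15 percentage points. The calls between subtypes and at starts rest on 1 or 2 regions and moved more. HMRs called between subtypes went from 2 to 1 at P2 with HMRs of at least 200 bp, and from 2 at P60 to 0 at 15 percentage points and to 1 with gene bodies alone. The start called at P2 (1) went to 0 at 15 points, with 1000 bp on each side and at the canonical start, and with 250 bp on each side the 1 call was Syt12, lower in eYFP+. The start called between stages in eYFP- (1) went to 0 at 15 points, with 250 or 1000 bp and at the canonical start. In eYFP+ the count went from 0 to 1 with 250 bp and at the canonical start, both Syt8, lower at P60. Pooled counts allow no test that leaves out a library.

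The 23 genes called for coverage between stages were 16 to 22 when 1 library was left out. With the replicate number as a block the count was 0, as it was without both P2 eYFP- libraries, with the P60 libraries of 1 file prefix (either one) and with eYFP+ libraries alone. The smallest p is 0.0556 with the block and 0.0667 in eYFP+ alone, which cannot pass. It is 0.0286 within a prefix and 0.0222 without the P2 eYFP- libraries, where a gene could pass only if a large share of all genes reached it. Coverage was lower at P60 in 31 and 29 of 37 genes within the prefixes. The block holds the same libraries as the first of these prefixes, so it is not a separate check. Between subtypes the count was 0 in every alternative, the block and leaving out 1 library included. The smallest possible p of these permutation tests was 0.00476 to 0.0313. There too a gene could pass only if a large share of all genes reached it. Switched HMRs between stages (19) were 19 to 25 when 1 library was left out, and between P60 subtypes (0) they were 0 to 2 when 1 library was left out: 1 at Syt1 without P60 eYFP- replicate 2, and 2 at Syt7 and Cplx2 without P60 eYFP+ replicate 2. The causes were not tested. Depth limits the P2 pools more, with a median of 281 and 274 reads per HMR against 515 and 529 at P60.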

Other observations

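Internal starts of 3 priming and Rab effector genes gained methylation while another start of the same gene stayed low. The start 150558 bp inside Unc13b went from 25.7% and 26.8% at P2 (eYFP- and eYFP+) to 60.8% and 57.6% at P60, beside a first start at 0.967% to 1.29%. The start 13546 bp inside Unc13a went from 50.5% and 39% to 71.2% and 67.7%, beside 6.47% to 9.37%. The start 3823 bp inside Rph3al went from 64% and 58.0% to 81.9% and 82.4%, beside 1.16% to 3.67% at the start 12459 bp inside. These starts were chosen after their values were seen, and no test was run on them.

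Near the RE1 match 18455 bp inside Syt2 the only CpG with reads within 100 bp went from 34.3% and 38.5% at P2 to 68.3% and 76.8% at P60, from 26 to 63 reads.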
